A study of Mus musculus with 4 samples.

Results

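The cells described here are the spleen CD8 T cells of a mixed bone marrow chimera, compared between a fraction that lacks the costimulatory receptor CD137 (CD137 minus) and one that carries it (CD137 plus). A cell was kept when Cd8a or Cd8b1, the genes of the CD8 coreceptor chains, had a value. This left 2444 of 2464 cells of the CD137 minus library and 469 of 473 cells of the CD137 plus library, or 2913 of the 6965 cells of the series. Irradiated C57BL/6 recipients had been given marrow of Cd4creCd137fl/flROSA26tomato and Cd137fl/flROSA26tomato donors, in which the Cd4 promoter drives Cre in developing T cells. They then received B16K1 melanoma cells under the skin, and spleens were taken on day 21. Cells of 7 mice were hashtagged and pooled, which gave 1 library for each fraction, and the table names no mouse for a cell. All cells came from tumour-bearing, irradiated and reconstituted mice, and the minus cells differ from the plus cells in Cre and donor as well as in CD137. These cannot be told apart. The labels disagree on the tomato reporter: the protocol equates its presence with loss of CD137, and the sample source lines give the reverse. Each library was therefore assigned by its stated CD137 status alone.

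CD137, also called 4-1BB and encoded by Tnfrsf9, is a receptor of the tumour necrosis factor receptor superfamily. Activated T cells display it, and ligand binding recruits TRAF adaptors and activates NF-kB. In the spleen, CD8 T cells range from naive cells, which carry the lymph node homing receptor CCR7, to memory cells, which hold Ccl5 mRNA in store. Terminal effector cells carry KLRG1 and CX3CR1 and load their granules with granzymes and perforin.

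With 1 library per fraction there was no replicate, so the differences below have no test and no error over animals, and they compare these libraries. Levels are corrected counts summed over the cells of a library and scaled to the same total in each (CPM), and ratios are log2 of minus over plus with 1 CPM added to each. A gene was measured when a library reached 20 CPM with a value in 5% of its cells and both libraries had a value, and the words higher and lower mark log2 ratios of at least 0.5 in size. Intervals beside shares of cells are exact Clopper-Pearson 95% intervals that cover counting error only. In such pooled levels, fewer cells of a type and less RNA per cell cannot be told apart, which is why shares of cells stand beside the levels.

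The libraries summed to 9741480 corrected counts in CD137 minus and 2444056 in CD137 plus, with a median of 3965.5 and 5337 per cell and of 1325 and 1632 genes per cell. The libraries share 3 cell barcodes. Cd8b1 had a value in 98.6% of minus cells and 99.4% of plus cells, at 1828 and 1738 CPM, and Cd8a stood at 513 and 518 CPM. Markers of other cells were low in both: 13 B cell genes summed to 482 and 380 CPM, 10 macrophage genes to 126 and 110 CPM and 6 NK cell genes to 73.9 and 113 CPM, while Lyz2, C1qa and the 4 red cell and platelet genes were at 0 in both. One class of cells stood apart. Malat1, a nuclear non-coding RNA, made up at least 1% of the corrected counts in 77 plus cells (16.4%, interval 13.2 to 20.1) and 93 minus cells (3.81%, 3.08 to 4.64). In plus these cells had a median of 1141 genes and 4.27% mitochondrial counts, against 1727.5 genes and 1.75% in the other plus cells. The results are therefore also given without them, a step chosen after the data were seen.

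Tnfrsf9 itself (mm10 chr4:150914562-150946102) was rare in the spleen. It had a value in 21 minus cells (0.859%, 0.533 to 1.31) and in 19 plus cells (4.05%, 2.46 to 6.25), and summed to 23 and 39 corrected counts. The level was 2.36 CPM in minus and 15.96 CPM in plus, below the limit for a measured gene, with a log2 ratio of -2.33. The order of the libraries is that of their CD137 labels. The labels do not name the exons that Cre removes, so the counts left in the minus library give no measure of the deletion. Of the ligand, adaptor and partner genes of the receptor, 6 of 10 were measured and none was past the limit: Traf1 stood at 117 and 132 CPM and Traf2 at 24.2 and 33.1 CPM.

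The comparison of the fractions was lopsided. Of 5204 measured genes, 547 were lower in CD137 minus (10.5%) and 76 were higher (1.46%). The median of all measured genes was -0.08 with an SD over genes of 0.32. Taking that median off gave 381 lower and 116 higher genes, so higher genes made up 23.3% of the calls in place of 12.2%. Without the cells of high Malat1 share, 383 of 5044 genes were lower (7.59%) and 76 were higher (1.51%). At a limit of 1 on the log2 scale 57 genes were lower and 8 higher. The filter asks for a level in 1 library only, so a gene can be measured through the library in which it is high: 481 genes passed through plus alone and 159 through minus alone. Of the 4564 genes that passed in both, 323 were lower (7.08%) and 39 higher (0.855%). Below, list counts are therefore also given over members that passed in both libraries.

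**Figure D1:**
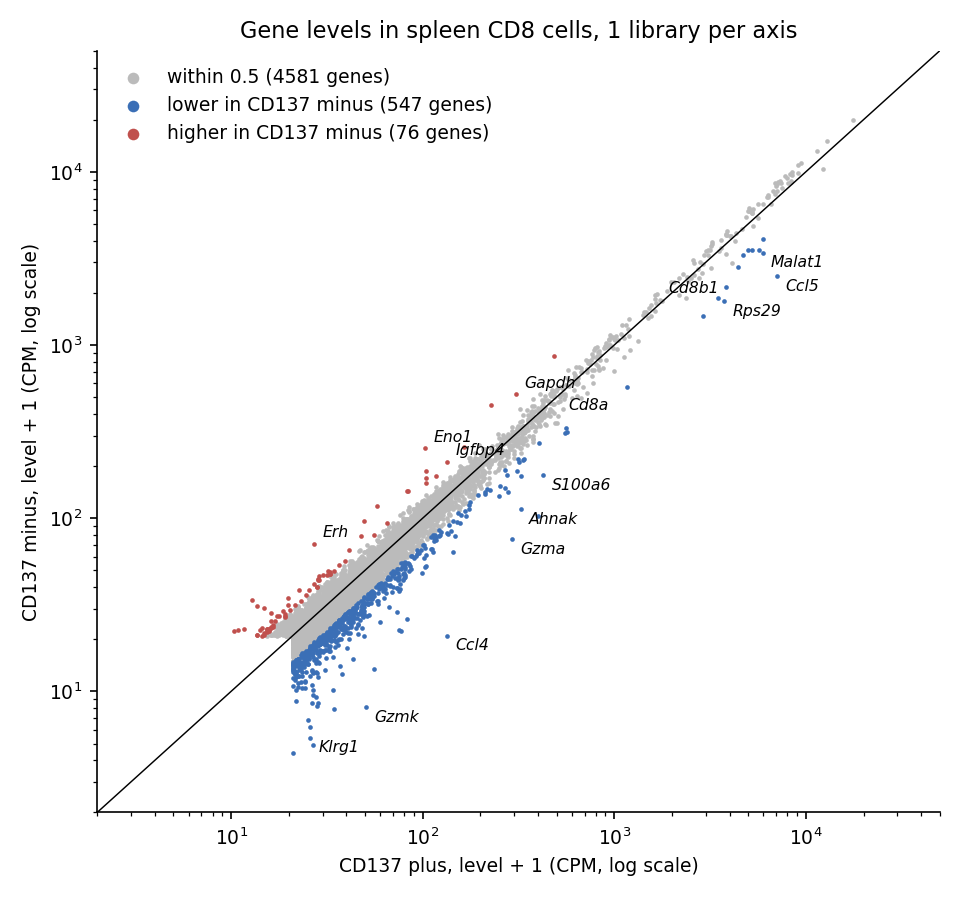
Level of each measured gene in CD137 plus (horizontal) and CD137 minus (vertical) spleen CD8 cells, in CPM plus 1 on log axes, with 1 point per gene and a line of equal levels. The 547 lower genes lie below the line and include Ccl5, Gzma, Gzmk, Ccl4 and Klrg1, while the 76 higher genes include Eno1, Erh and Gapdh, and Cd8a and Cd8b1 lie on it.

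The 21 genes listed for terminal effector CD8 T cells summed to 1099 CPM in CD137 minus and 2249 CPM in CD137 plus. Of these genes 16 were measured, and 9 of the 16 passed the filter through plus alone, which favours a low ratio, so their count is no support. Of the 7 that passed in both libraries 6 were lower and none higher, with a median of -0.82 against -0.06 over all genes that passed in both. Of all those genes 7.08% were lower, and of all measured genes 10.5%. Over the 16 measured genes 15 were lower and the median was -1.42, or -1.53 without the cells of high Malat1 share.

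Gzma, which encodes the tryptase granzyme A, stood at 74.7 CPM in minus and 293 CPM in plus, a log2 ratio of -1.96. It had a value in 42 minus cells (1.72%, 1.24 to 2.32) and 49 plus cells (10.4%, 7.83 to 13.6). Gzmb, whose product granzyme B cleaves caspases in target cells, stood at 12.4 and 54.8 CPM (-2.06), with a value in 2.13% (1.59 to 2.78) and 10.7% (8.02 to 13.8) of cells. Gzmk, encoding granzyme K, stood at 7.08 and 49.5 CPM (-2.64), with a value in 1.19% and 7.89% of cells. For each of the 3 granzymes the interval of the minus share lies below that of the plus share. All 3 passed the filter through plus alone, which favours a low ratio and this order of the shares, so neither is support. The sequences before their start sites are shown because these 3 genes were lower together. They are the 250 bases before the start, from RefSeq on GRCm38.p6, 5′ to 3′ on the minus strand, at chr13:113100982-113101231, chr14:56262335-56262584 and chr13:113180966-113181215. Capitals mark matches to 3 short motifs searched on both strands: TGTGGTT of RUNX factors, GGTGTGA of T-box factors and, for NF-kB, GGGA and CC with 4 bases of any kind between them.
Gzma: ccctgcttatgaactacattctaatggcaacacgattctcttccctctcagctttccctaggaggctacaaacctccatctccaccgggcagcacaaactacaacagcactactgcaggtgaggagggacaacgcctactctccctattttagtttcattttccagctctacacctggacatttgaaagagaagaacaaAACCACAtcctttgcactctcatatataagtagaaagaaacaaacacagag
Gzmb: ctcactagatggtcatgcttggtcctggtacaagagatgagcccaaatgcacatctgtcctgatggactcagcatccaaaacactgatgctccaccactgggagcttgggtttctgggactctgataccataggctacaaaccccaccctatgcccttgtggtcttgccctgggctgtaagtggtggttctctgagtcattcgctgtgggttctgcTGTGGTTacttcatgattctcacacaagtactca
Gzmk: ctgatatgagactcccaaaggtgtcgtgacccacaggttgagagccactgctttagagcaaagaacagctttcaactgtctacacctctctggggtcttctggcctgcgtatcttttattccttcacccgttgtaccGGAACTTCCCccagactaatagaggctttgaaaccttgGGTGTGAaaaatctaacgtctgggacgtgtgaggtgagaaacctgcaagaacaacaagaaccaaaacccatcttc
The capitals in Gzma and in Gzmb are RUNX matches, with first bases at -51 and -34 from the start, and those in Gzmk are an NF-kB match at -113 and a T-box match at -75. Of 32851 RefSeq promoter windows of this length, 4.4% hold the RUNX letters, 3.33% the T-box letters and 17.6% the NF-kB letters. Of the other windows looked at, those of Cx3cr1, Fasl, Ifng and Zeb2 and the first of Tnfrsf9 held none of the 3, and the second window of Tnfrsf9 held the NF-kB letters. These are matches of letters and say nothing on binding.

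Surface markers of the terminal effector state were lower as well. Of the genes named here Klrg1, Cx3cr1, S1pr5, Klre1 and Zeb2 passed the filter through plus alone, which favours a low ratio. Klrg1, an inhibitory lectin receptor, stood at 4.41 CPM in minus and 24.96 CPM in plus (-2.26). Its share was 0.859% (0.533 to 1.31) of minus cells and 5.76% (3.83 to 8.27) of plus cells. Cx3cr1, the fractalkine receptor, stood at 6.88 and 33.6 CPM (-2.13), with shares of 1.31% and 6.82%. S1pr5, a sphingosine phosphate receptor, stood at 8.52 and 25.8 CPM (-1.49). Klrc1, which encodes the NKG2A receptor, stood at 21.4 and 76.5 CPM (-1.79), and Klre1 at 12.3 and 29.9 CPM (-1.21). The exception among measured members was Klrd1, the CD94 partner of NKG2 receptors, at 271 and 309 CPM (-0.19). Zeb2, a repressor that promotes the terminal effector state, stood at 3.90 and 25.8 CPM (-2.45), and Tbx21, which encodes T-bet, at 27.1 and 48.7 CPM (-0.82).

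The antigen-experienced and memory list had 20 measured members, of which 13 were lower and none higher, with a median of -0.70. Of all measured genes 10.5% were lower. Of the 14 that passed the filter in both libraries 7 were lower, with a median of -0.52, where 7.08% of all such genes were lower. The other 6, Klrk1 and Il18rap among them, passed through plus alone, which favours a low ratio. Ccl5, a chemokine made by memory and effector cells, was the most abundant of them, at 2496 CPM in minus and 7107 CPM in plus (-1.51). Il2rb, the shared beta chain of the interleukin 2 and 15 receptors, stood at 134 and 249 CPM (-0.89). Klrk1, which encodes the activating receptor NKG2D, stood at 21.7 and 74.1 CPM (-1.73), and Il18rap, a chain of the interleukin 18 receptor, at 14.5 and 42.1 CPM (-1.48). Itgb1, the integrin beta 1 chain, stood at 63.0 and 143 CPM (-1.17). Cd44, the usual marker of antigen experience, was low in both libraries at 24.3 and 36.4 CPM (-0.56), with a value in 8.27% (7.20 to 9.43) and 14.1% (11.1 to 17.6) of cells. It no longer passed the limit with a pseudocount of 10 CPM (-0.44).

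Among the 8 measured cytokine and chemokine genes 4 were lower, where 10.5% of all measured genes were lower. Of these 4 genes 3, Ccl4, Ifng and Fasl, passed the filter through plus alone, which favours a low ratio. Ccl4, an inflammatory chemokine, had the lowest ratio of all nameable measured genes, at 20.02 and 133 CPM (-2.67). It had a value in 98 minus cells (4.01%, 3.27 to 4.87) and 68 plus cells (14.5%, 11.4 to 18.02). Ifng, encoding interferon gamma, stood at 7.596 and 27.4 CPM (-1.72) and Fasl, the ligand of the death receptor Fas, at 5.85 and 24.1 CPM (-1.88). The median of the list was -0.82 over all CD8 cells, -0.20 over 7 genes without the cells of high Malat1 share and -0.02 over the 5 genes that passed in both libraries. Homing and chemokine receptors included 6 lower genes of 13 measured and 1 higher, where 10.5% of all measured genes were lower and 1.46% higher. Of the lower genes 4 passed through plus alone, such as Ccr2 at 11.6 and 36.8 CPM (-1.59). Of the 9 that passed in both libraries 2 were lower, where 7.08% of all such genes were lower. The higher gene was Ccr9, a receptor of gut homing, at 48.5 and 31.1 CPM (0.62).

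The lowest ratios among genes of at least 200 CPM belonged to genes of mixed roles, whose direction was fixed by this choice. Ahnak, a very large scaffold protein, stood at 112 and 325 CPM (-1.53), with a value in 25.1% (23.4 to 26.9) and 46.7% (42.1 to 51.3) of cells. Without the cells of high Malat1 share its ratio was -1.08. S100a6, a calcium-binding protein, stood at 175 and 425 CPM (-1.27), and Lgals1, encoding galectin 1, at 314 and 568 CPM (-0.85). H2-T23, which encodes the Qa-1 molecule bound by NKG2A, stood at 174 and 324 CPM (-0.89).

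**Figure D2:**
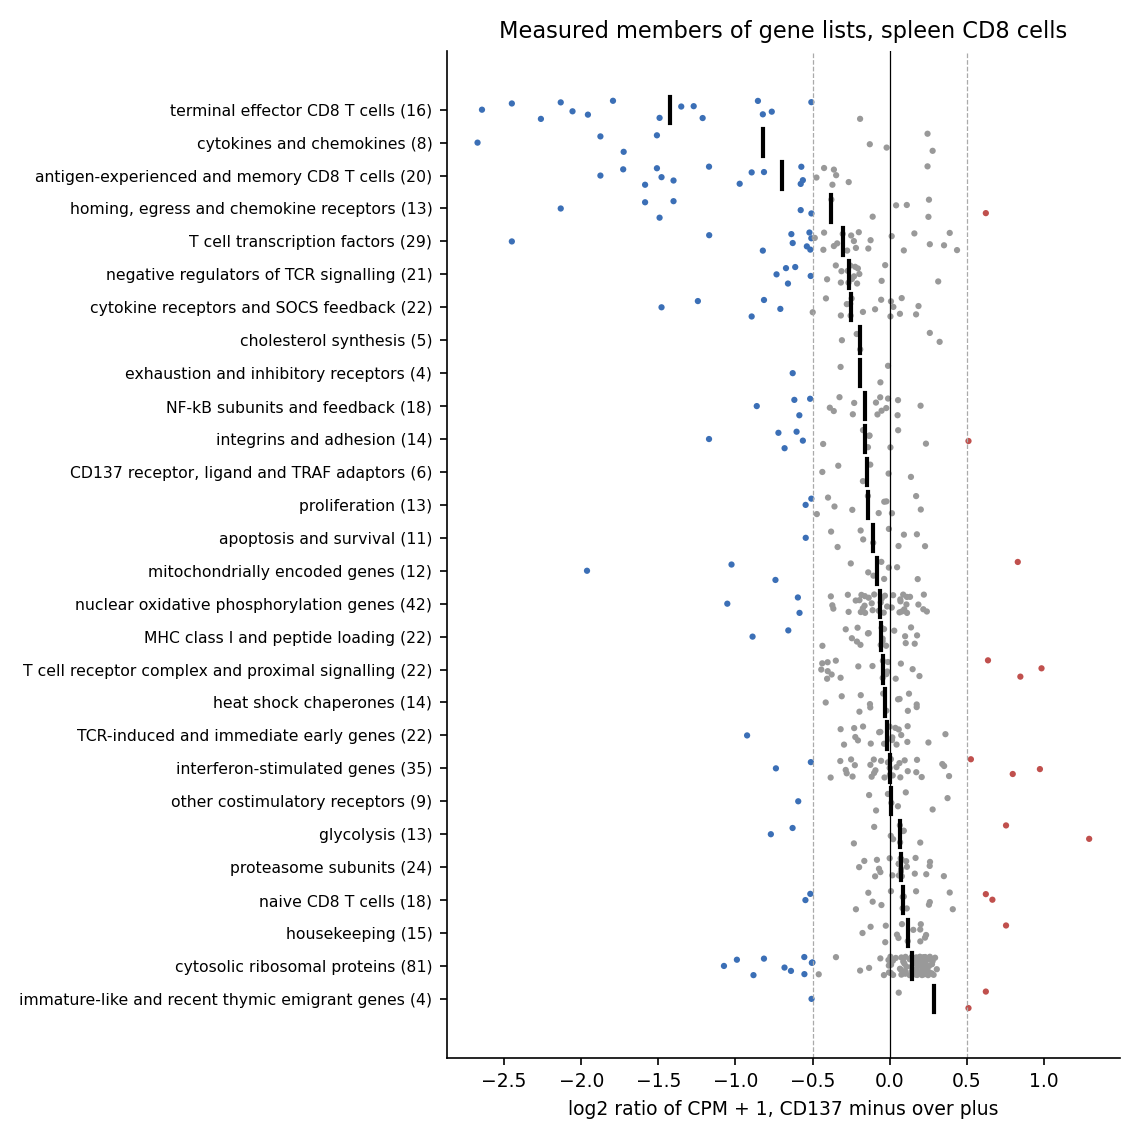
Log2 ratio of minus over plus for every measured member of each gene list (points, with the number measured in brackets) and the list's median (bar). Terminal effector genes have a median of -1.42, in part through members measured by their level in plus alone, while naive genes lie around 0 with a median of 0.09.

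Other regulators stood nearer equality, and part of their calls rested on the cells of high Malat1 share. Of 29 measured transcription factors 9 were lower and none higher, where 10.5% of all measured genes were lower and 1.46% higher, and 7 of the 27 that passed in both libraries were lower, where the share was 7.08%. Without those cells 4 of 28 were lower and 1 was higher, where 7.59% of all measured genes were lower and 1.51% higher. Runx2 stood at 9.44 and 22.5 CPM (-1.17) and Ikzf3, encoding Aiolos, at 77.5 and 121 CPM (-0.64), the latter at -0.31 without those cells. Of 18 measured NF-kB genes 4 were lower, Tnfaip3, Nfkb2, Relb and Ikbkb, against the 10.5% of all measured genes. Tnfaip3, which encodes the feedback inhibitor A20, stood at 40.8 and 74.9 CPM (-0.86) and at -0.24 without those cells, and 2 of 17 genes of the list were then lower, near the 7.59% of all measured genes. Cytokine receptors and their SOCS feedback genes had 5 lower of 22 measured, or 3 of the 18 that passed in both libraries, with Il10ra at 19.8 and 48.3 CPM (-1.24), and 5 of 21 without those cells. Of the inhibitory receptors and exhaustion genes 4 of 18 were measured, and Tox, a factor of the exhausted state, was lower at 30.1 and 47.1 CPM (-0.63) but stood at -0.16 without those cells. Pdcd1, encoding PD-1, was at 5.03 and 9.82 CPM, in 1.31% (0.897 to 1.84) and 2.56% (1.33 to 4.43) of cells, with overlapping intervals.

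Naive genes were near equality. Of 18 measured genes, all past the filter in both libraries, 2 were higher and 2 lower in CD137 minus, with a median of 0.09. Over all genes that passed in both libraries 0.855% were higher and 7.08% lower, and without the cells of high Malat1 share 3 of the 18 were higher and none lower. Ccr7 stood at 444 CPM in minus and 372 CPM in plus (0.25), Tcf7 at 331 and 311 CPM (0.09), and Il7r, the survival receptor of naive and memory cells, at 319 and 317 CPM (0.01). Lef1, a partner factor of Tcf7, stood at 490 and 374 CPM (0.39), and at 0.55 without the cells of high Malat1 share. Igfbp4, a secreted protein of naive CD8 cells, was higher at 211 and 133 CPM (0.67), whereas Txk at 119 and 174 CPM (-0.55) and Bach2 at 31.2 and 45.0 CPM (-0.51) were lower. Without the cells of high Malat1 share Txk stood at -0.37 and Bach2 at -0.35. Sums over this list were 4945 and 4452 CPM.

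**Figure D3:**
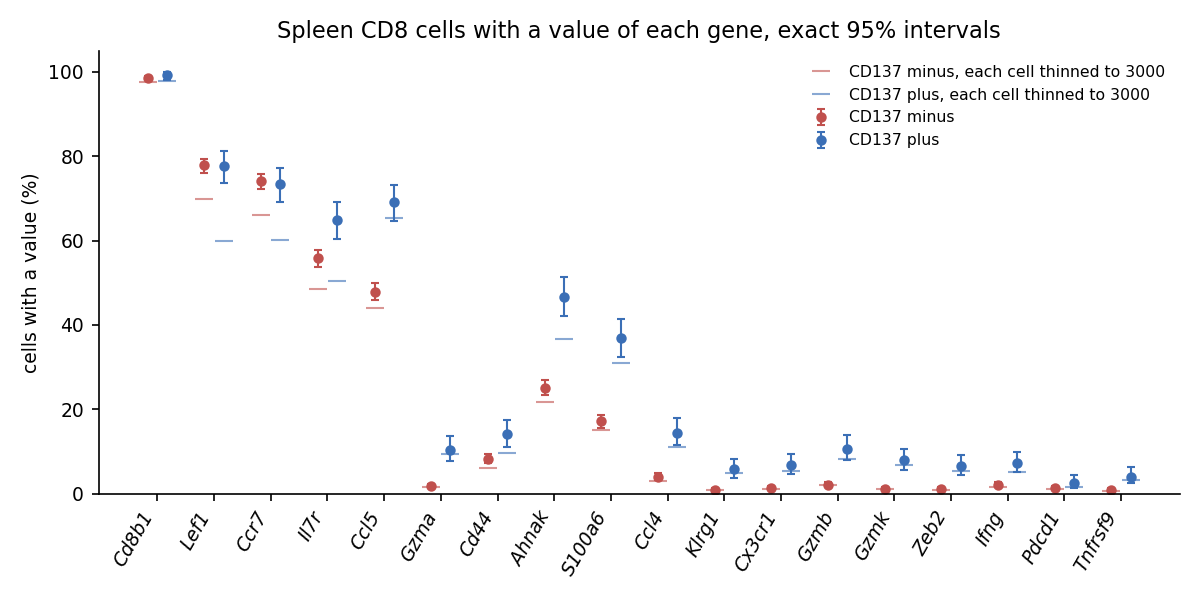
Share of spleen CD8 cells with a value of each gene (points, exact 95% intervals) in CD137 minus and plus. Dashes are the shares with each cell thinned to 3000 corrected counts. Ccl5, Gzma, Ccl4 and Ahnak had values in more plus cells, and Lef1 and Ccr7 had values in over 70% of cells of both libraries before thinning.

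Since plus cells had higher corrected totals, shares were also taken after thinning, by drawing 3000 corrected counts from each cell. All cells had enough counts for this. The totals are corrected and not raw, so thinning does not make sequencing depth equal. Gzma then had a value in 1.68% of minus and 9.38% of plus cells, Ccl4 in 2.99% and 11.1%, and Klrg1 in 0.818% and 4.90%. Lef1 went from 77.8% and 77.6% to 69.9% and 59.9%. After thinning these effector genes thus kept their order between the libraries, and Lef1 had a value in a larger share of minus cells.

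Ccl5 was used to divide the cells, and its share of cells with a value differed between the libraries. It had a value in 1170 minus cells (47.9%, 45.9 to 49.9) and 324 plus cells (69.1%, 64.7 to 73.2), and after thinning in 43.9% and 65.2%. A count of at least 10 was found in 457 minus cells (18.7%, 17.2 to 20.3) and 181 plus cells (38.6%, 34.2 to 43.2). Counts of 1 or 2 were found in 21.4% of minus and 14.3% of plus cells. Counts of 3 to 9 were found in 7.82% and 16.2%, and 54 of those 76 plus cells had a high Malat1 share. Without the cells of high Malat1 share a Ccl5 value was found in 47.0% of minus and 63.3% of plus cells. A gate on Ccl5 is a range of 1 gene and not a cell type.

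Within cells with a Ccl5 value the effector genes were still lower in CD137 minus. Of 16 measured terminal effector genes 13 were lower and none higher (median -1.03), where 11.1% of all 5323 measured genes were lower and 4.08% higher. Of the 9 that passed the filter in both libraries 6 were lower, with a median of -0.63. Gzma stood at 152 CPM in minus and 429 CPM in plus (-1.49), Klrg1 at 8.90 and 36.8 CPM (-1.93) and Zeb2 at 7.42 and 36.2 CPM (-2.15). These genes passed the filter through plus alone in this gate, which favours a low ratio. Ccl5 itself stood at 5152 and 10487 CPM (-1.03) there, so the gate did not match the libraries in Ccl5. In cells with a Ccl5 count of at least 10, a gate chosen after the data were seen, 10 of 16 were lower (median -0.73), where 11.2% of all measured genes were lower and 6.64% higher, and of the 14 that passed in both libraries 8 were lower (median -0.68). There Gzma stood at 372 and 743 CPM (-0.995), Klrg1 at 21.98 and 64.2 CPM (-1.50) and Ccl4 at 68.0 and 335 CPM (-2.28). Klrg1 passed through plus alone there as well. The median of the memory list was closer to equality in this gate, at -0.25, with Il2rb at 373 and 444 CPM (-0.25). Its 20 measured members all passed the filter in both libraries, and 9 of them were still lower and 1 higher. Of all genes that passed in both there, 7.4% were lower and 3.79% higher.

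The make-up of the cells with at least 10 Ccl5 counts was described by shares of cells with marker genes. A value of Klrg1, Cx3cr1, Zeb2 or Gzma was found in 47 of 457 such minus cells (10.3%, 7.65 to 13.4) and in 51 of 181 such plus cells (28.2%, 21.8 to 35.3). Inhibitory receptor genes came into range in this gate. Lag3, a ligand of MHC class II, stood at 6.80 and 52.6 CPM (-2.78), Pdcd1 at 4.71 and 23.1 CPM (-2.08) and Tigit at 12.04 and 44.2 CPM (-1.79). Of the 8 genes of the inhibitory receptor list measured in this gate 4 passed through plus alone, and of the 4 that passed in both libraries 1 was lower and 1 higher (median -0.09). Without the cells of high Malat1 share Lag3 stood at -2.86, Pdcd1 at -1.76 and Tigit at -1.70, and Lag3 and Pdcd1 then fell outside the measured genes. Over the 6 still measured 3 were lower and 1 higher, where 9.91% of all measured genes were lower and 6.21% higher. A value of any of the 3 genes was found in 30 minus cells (6.56%, 4.47 to 9.24) and 26 plus cells (14.4%, 9.60 to 20.3). Lag3 and Tigit were chosen for mention after their values were seen.

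Cells without a Ccl5 value carried few effector transcripts in either library. Only 5 terminal effector genes were measured there, and 1 of them was lower, where 13.9% of all measured genes were lower and 2.59% higher. Their median was -0.17 beside -0.12 for all measured genes. Klrg1, Gzmb and Gzmk were listed at 0 in plus and at 0.199, 2.19 and 0.797 CPM in minus. Other members had the reverse order: Gzma stood at 2.39 CPM in minus and 6.35 CPM in plus, Zeb2 at 0.597 and 3.81 CPM and Klrc1 at 1.19 and 3.81 CPM. All of these were below the limit for a measured gene. Weighting both libraries to the pooled share of cells with and without a Ccl5 value left 427 lower genes (8.28%) and 51 higher genes (0.989%). The terminal effector median was then -0.87, and that of the memory list -0.34.

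**Figure D4:**
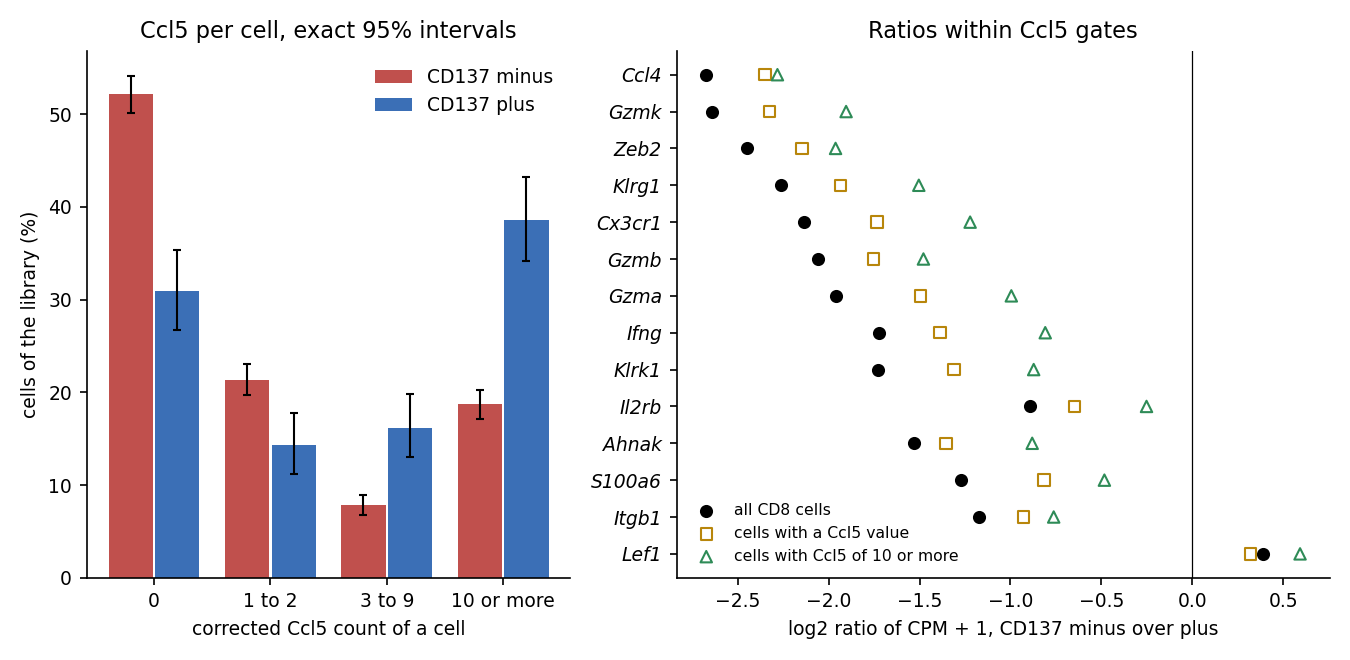
Left, share of cells of each library by corrected Ccl5 count, with exact 95% intervals: 38.6% of plus and 18.7% of minus cells had 10 or more. Right, log2 ratio of 14 genes over all CD8 cells, over cells with a Ccl5 value and over cells with a Ccl5 count of 10 or more: effector genes such as Gzma lie nearer 0 within the gates and stay below it.

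Genes higher in CD137 minus were fewer and of mixed roles. Eno1, the glycolytic enzyme enolase 1, stood at 252 CPM in minus and 102.3 CPM in plus (1.29), with a value in 59.6% (57.6 to 61.6) and 37.7% (33.3 to 42.3) of cells. Gapdh, another glycolytic enzyme, stood at 519 and 307 CPM (0.75), while Pfkp at 48.8 and 83.9 CPM (-0.77) and Hk1 at 30.6 and 47.9 CPM (-0.63), which act earlier in glycolysis, were lower. Of 13 measured glycolysis genes 2 were thus higher and 2 lower. Erh stood at 70.3 and 26.2 CPM (1.39) and Wdr89 at 30.2 and 12.7 CPM (1.19). Of the interferon-stimulated genes 3 of 35 were higher, Isg20, Slfn5 and Isg15, and 2 were lower, with a median of 0.00. Over all measured genes 1.46% were higher and 10.5% lower. Isg20 and Slfn5 passed the filter through minus alone. Of the 31 members that passed in both libraries 1 was higher and 1 lower. Isg15, a ubiquitin-like modifier, stood at 0.32 without the cells of high Malat1 share. The T cell receptor constant genes Trac (256 and 164 CPM, 0.64), Trbc1 (186 and 103 CPM, 0.85) and Trbc2 (451 and 227 CPM, 0.98) were higher. Trbc1 and Trbc2 are near-identical copies, so the split of reads between them is uncertain. These are the 3 higher genes among 22 measured of the receptor complex and its proximal signalling, and none of that list was lower.

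Gapdh has 102 processed pseudogene copies in the annotation, Ywhaq 7, Erh 2 and Eno1 2, at 90% identity over at least 200 nt, so reads of these genes can be shared. Of the 76 higher genes 15 have at least 1 copy, as do 52 of the 547 lower genes. Over the 5070 measured genes with a coding length, 963 have at least 1 copy. The same genes took the other direction in the tumour libraries: Eno1 stood there at 307 CPM in minus and 544 CPM in plus (-0.82), Gapdh at 981 and 2177 CPM (-1.15) and Erh at 37.9 and 101 CPM (-1.39).

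Some ribosomal protein and mitochondrial genes also had opposite directions in the tissues. Of 81 measured cytosolic ribosomal protein genes 10 were lower in spleen CD137 minus (12.3%) and none higher, and their median was 0.14. All 81 passed the filter in both libraries, where 7.08% of genes were lower and 0.855% higher. Rps29 stood at 1785 and 3759 CPM (-1.07), Rpl38 at 1467 and 2915 CPM (-0.99) and Rps28 at 1877 and 3463 CPM (-0.88). In the tumour their ratios were 1.08, 0.98 and 1.11. Of 12 measured mitochondrially encoded genes 3 were lower, mt-Atp8, mt-Nd4l and mt-Nd3, and 1 was higher, mt-Nd4. The gene mt-Atp8, of 204 nt, stood at 102.1 and 401 CPM (-1.96), mt-Nd4l, of 297 nt, at 570.3 and 1162 CPM (-1.03), and mt-Nd4, of 1378 nt, at 858 and 482 CPM (0.83). The 3 lower genes are the shortest of the 12 measured, with mt-Nd3, of 348 nt, at -0.74. Among longer ones mt-Nd5, of 1824 nt, stood at -0.25, mt-Co1, of 1545 nt, at -0.11 and mt-Cytb, of 1144 nt, at -0.05. The 135 measured genes with mRNAs under 600 nt included 22 lower and 3 higher in the spleen, against 6 lower and 20 higher of 136 in the tumour. Their spleen median, -0.06, was close to the -0.08 of all measured genes. At 4000 nt or more the spleen had 179 lower and 8 higher of 1001. The part of mRNA length, of pseudogene copies and of library depth in these ratios was not tested.

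**Figure D5:**
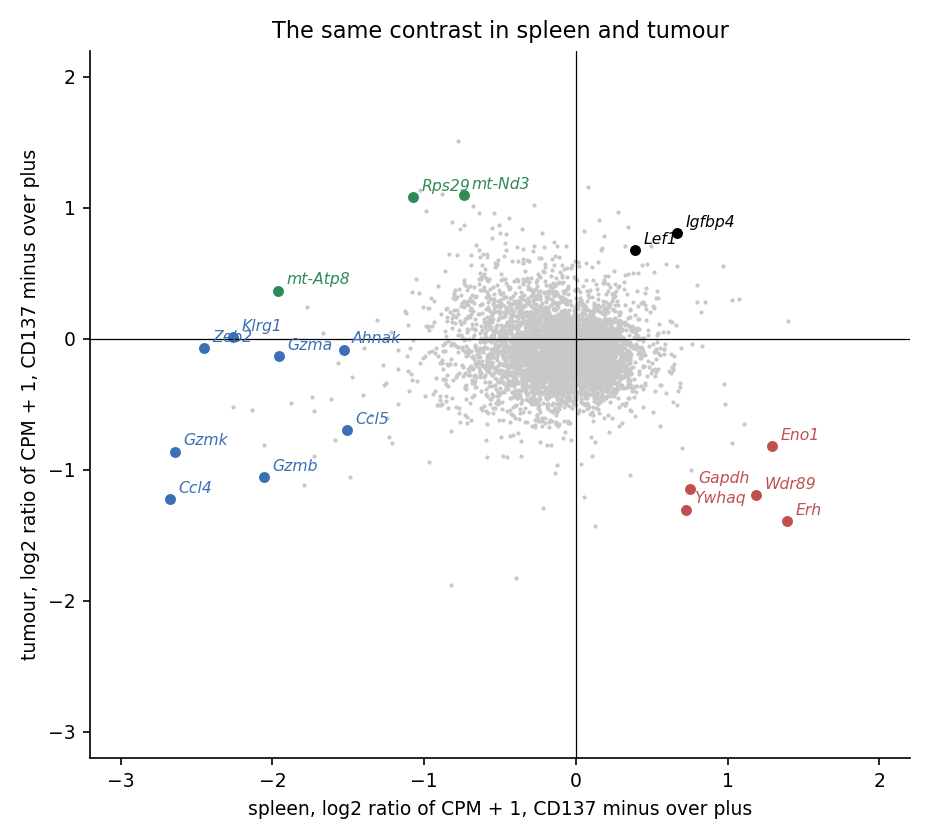
Log2 ratio of minus over plus in the spleen (horizontal) against the tumour (vertical), 1 grey point per gene measured in the spleen and with a value in both tumour libraries. Ccl4, Gzmk, Gzmb and Ccl5 are below 0 on both axes, Gzma, Klrg1 and Zeb2 are near 0 in the tumour, and Eno1, Erh, Gapdh and Rps29 take opposite directions.

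Set beside the same contrast in the tumour, whose libraries are separate from those of the spleen, the ratios had little in common across genes. Over 4665 genes measured in both tissues Pearson's r was -0.07 and Spearman's rho -0.08, a description across genes that share libraries. Of 420 genes lower in the spleen and measured in both, 37 were lower and 32 higher in the tumour, where 5.34% of measured genes were lower and 1.66% higher. Gzmb (-2.06 in the spleen, -1.06 in the tumour), Ccl4 (-2.67 and -1.22) and Klrc1 (-1.79 and -1.12) were lower in both. Klrg1 (-2.26 and 0.01), Zeb2 (-2.45 and -0.07), Gzma (-1.96 and -0.13) and Ahnak (-1.53 and -0.08) were past the limit in the spleen and not in the tumour. The difference between the tissues has no test with 1 library each.

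Shares of cells with a receptor segment were also set side by side. Of 27 V segments found in at least 3% of cells of a library, 25 had overlapping intervals. With 469 plus cells the intervals are wide, so overlap is no measure of equal use. These shares were not taken after thinning. Trbv13-2 was the most frequent beta segment, at 20.01% (18.4 to 21.7) and 18.6% (15.1 to 22.4). Intervals did not overlap for Trbv16, at 10.3% (9.13 to 11.6) and 5.76% (3.83 to 8.27), and for Trav16n, at 2.09% (1.56 to 2.73) and 5.12% (3.31 to 7.52), all 3 named after their values were seen.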

How the data were processed

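The authors deposited 1 table with 6965 cells and 12763 genes, whose entries are on a natural log scale: undoing the natural log and subtracting 1 gives whole numbers, to within 1e-11 of their size. The submitters' processing notes list Cell Ranger 3.0.2, Seurat 3.0 and mm10, and the sources used here do not say how cells were filtered or values normalized. Totals per cell span a narrow range within a library, so these numbers are treated as corrected and not raw counts, and a count model was not used. The libraries were made with a 5′ single-cell kit, per the labels' protocols. Cells were assigned to libraries by the barcode prefix and kept when Cd8a or Cd8b1 was above 0.

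Corrected counts were summed per library and scaled to CPM. Ratios used a pseudocount of 1 CPM. Genes were measured at 20 CPM and 5% of cells in 1 library with a value in both. Calls were made at 0.5 on the log2 scale. The named genes are Tnfrsf9, Cd8a and Cd8b1, the 15 highest and 15 lowest measured genes, the 12 highest and 12 lowest with at least 200 CPM in 1 library, up to 4 members a direction of each list, and 12 fixed marker genes, of which some are not reported here. Ranked names left out unnamed models, sex-linked, haemoglobin, ribosomal protein, mitochondrial and immunoglobulin genes and receptor segments. Klrd1, Klre1, Traf1, Traf2, Lag3, Tigit and 3 receptor segments fall outside this rule and were named after their values were seen. Members and lists were chosen with earlier results of these data known. Ccl5 gates needed 50 cells in each library. No doublet caller was run. Gene positions and lengths came from GENCODE, whose symbols matched 12631 genes, and pseudogene copies from minimap2 2.31. The functions were tested on simulated data. Alternatives were another pseudocount, cell set, scaling, filter, size limit and Ccl5 composition, and thinned corrected counts. The software was numpy 2.4.6, pandas 2.3.3, matplotlib 3.10.9 and scipy 1.17.1 under Python 3.11.15.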

Additional observations from a re-analysis of the deposited data

Results flagged for a closer look

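Some named genes were past the 0.5 limit in opposite directions in the spleen and the tumour, a difference that was not tested. Genes higher in spleen CD137 minus and lower in tumour CD137 minus were Erh (1.39 in the spleen), Eno1 (1.29), Wdr89 (1.19), Asnsd1 (1.03), Naa10 (0.76), Gapdh (0.75) and Ywhaq (0.72). Genes lower in the spleen and higher in the tumour were Rps29 (-1.07), mt-Nd4l (-1.03), Rpl38 (-0.99), Rps28 (-0.88), Ndufa3 (-0.84), Rpl35 (-0.82), mt-Nd3 (-0.74), Pag1 (-0.66), Atp5md (-0.63) and Bach2 (-0.51). Without the cells of high Malat1 share the log2 ratio of Pag1 in the spleen was 0.028 and that of Bach2 -0.35.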

How the results depend on the processing

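Of 111 named genes 2 had a log2 ratio of the other sign under an alternative, both without the cells of high Malat1 share: the log2 ratio of Malat1 went from -0.80 to 0.45 and the log2 ratio of Pag1 from -0.66 to 0.028. The count of genes higher in spleen CD137 minus, 76, was 31 with a pseudocount of 10 CPM, 116 with the median taken off, 155 when scaled without mitochondrial and ribosomal genes, 285 without a level filter, 13 with a filter of 100 CPM, 50 without short mRNAs and genes with pseudogene copies, 39 with the filter met in both libraries and 8 at a limit of 1. The count of genes lower in spleen CD137 minus, 547, was 292, 1628, 75, 323 and 57 with the pseudocount of 10 CPM, no filter, the 100 CPM filter, the filter met in both libraries and the limit of 1. Over all CD8 cells the terminal effector median stayed past 0.5 under all alternatives run, from -1.62 to -0.82. Of 999 values of named genes under alternatives, 927 kept their direction and side of the limit, 69 no longer passed it and 1 newly passed it; 20 of the values that differed came with equal Ccl5 composition. The memory median was -0.34 with equal Ccl5 composition, and within cells with Ccl5 it was -0.33 at a count of at least 2, -0.25 at 10 and -0.28 at 10 without the cells of high Malat1 share. The share of cells with a Ccl5 value in minus and plus was 31.8% and 59.3% at a count of at least 2, 18.7% and 38.6% at 10, 43.9% in minus when thinned, and 63.3% in plus without the cells of high Malat1 share. No paired analysis was possible because each fraction has 1 library and no fit was made. The alternatives on Malat1, on a Ccl5 count of 10, on short mRNAs and on the filter in both libraries were chosen after the data were seen. The 469 plus cells limit rare genes: 19 of them had a Tnfrsf9 value.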
